A study of Caenorhabditis elegans with 3 samples.

Results

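The peaks described here are the weak peaks that were found in both biological replicates of a chromatin immunoprecipitation and sequencing experiment on ELT-3 in whole C. elegans at the L1 stage, the first larval one. They were selected from the pooled peak list of the ce11 build, which held 26508 peaks. Such lists, from before the threshold, were deposited as peaks and background, so an entry is not by itself a called ELT-3 site. The lists of replicates 1 and 2 held 30000 and 27330 entries. A peak was taken if it was missing from the authors' list thresholded on reproducibility, shared at least 1 bp with a relaxed peak of replicate 1 and with one of replicate 2, and had no summit within 200 bp of a tRNA, snoRNA or snRNA gene. This gave 6659 peaks, called members here, of the 21978 in the pooled list that the threshold left out. All worms were of strain OP75, with the unc-119(ed3) III mutation and the transgene wgIs75, from which ELT-3 is stably made with GFP-FLAG at the C-terminal end. The labels name elt-3 as the antibody target, give the sex as male and female pooled and the age as unknown, and do not say what drives the transgene or whether endogenous elt-3 was intact. The 3 libraries form 1 group of 2 biological replicates. The 2 technical libraries of replicate 1 stand behind 1 list and cannot be told apart, and replicate 2 has 1 library. With 1 group there was no comparison between conditions, and the comparisons are between sets of peaks.

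ELT-3 belongs to the GATA family, zinc finger transcription factors that bind DNA at short sites with GATA at their core. It is known from the epidermis, also called the hypodermis, the tissue that secretes the collagen-rich cuticle and joins it to the underlying muscle. Upstream of it, ELT-1, another GATA factor, specifies epidermal cells in the embryo.

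The sequences of 8 of these peaks are printed because they show what GATA sites look like in weak peaks and what windows without any look like near the threshold. Each is the pooled summit with 50 bp to either side, on the plus strand, read from the RefSeq WBcel235 assembly, which is ce11. The first 4 had the most sites, the next 2 the highest pooled signal among those with a site, and the last 2 the highest among those with none, all taken from chromosomes II, III, IV, V and X. Capitals mark WGATAR on either strand, with A or T for W and A or G for R, so that a site on the minus strand reads TTATCA, or CTATCT, and so on.
intronic peak nearest the start of aldo-2, chrIII:5875862-5875962: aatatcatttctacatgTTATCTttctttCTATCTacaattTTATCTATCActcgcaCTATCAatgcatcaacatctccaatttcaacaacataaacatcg
fbxa-50 promoter peak, chrIII:1289224-1289324: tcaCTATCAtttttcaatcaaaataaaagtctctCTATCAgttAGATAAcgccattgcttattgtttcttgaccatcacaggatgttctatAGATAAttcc
intronic peak nearest the start of wdr-62, chrV:9454053-9454153: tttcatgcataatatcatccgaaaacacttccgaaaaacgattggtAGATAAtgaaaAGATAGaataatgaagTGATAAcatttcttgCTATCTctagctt
intergenic peak nearest the start of F48E8.2, chrIII:5468197-5468297: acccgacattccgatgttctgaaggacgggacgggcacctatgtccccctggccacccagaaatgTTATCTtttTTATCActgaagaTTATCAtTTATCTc
T04C12.8 promoter peak, chrV:11069486-11069586: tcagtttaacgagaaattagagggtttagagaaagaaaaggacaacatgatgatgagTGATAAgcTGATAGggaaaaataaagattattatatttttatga
intronic peak nearest the start of eat-17, chrX:16400917-16401017: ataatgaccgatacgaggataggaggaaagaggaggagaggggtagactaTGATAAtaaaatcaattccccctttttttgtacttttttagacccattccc
intronic peak nearest the start of sdpn-1, chrX:7990390-7990490: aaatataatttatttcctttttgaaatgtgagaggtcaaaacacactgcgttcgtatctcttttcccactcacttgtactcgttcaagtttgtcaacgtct
ttm-1 promoter peak, chrIII:12967668-12967768: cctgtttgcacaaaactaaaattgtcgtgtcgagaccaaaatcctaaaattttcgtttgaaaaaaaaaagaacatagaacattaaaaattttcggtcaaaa
In the window nearest aldo-2, 2 of the 5 sites overlap and read as 1 longer run of capitals. The window nearest sdpn-1 has no WGATAR but holds aggtca, the half-site known for nuclear hormone receptors, and ctgcgt. The authors' pooled signal of the fbxa-50 promoter peak was 33.6, with 11.7 in replicate 1 and 23.2 in replicate 2, and that of the T04C12.8 peak was 35.19.

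The pooled signal chose these peaks, through the threshold, so its values are a description. Signal is the authors' own value per peak, on a scale not stated, and the files used here hold no read counts, so the depth of the libraries is unknown. Members ran from 8.16 to 35.19 with a median of 16.4. Thresholded peaks away from small RNA genes, 4374 in number, ran from 35.21 to 382 with a median of 60.4. The other 14961 weak peaks away from small RNA genes had a median of 10.5 and reached 35.07, so they lay over the same range as members but mostly near its floor. Of these, 5340 overlapped the replicate 1 list alone, 6812 the replicate 2 list alone and 2809 neither. The authors' −log10 q had a median of 0.862 in members, 3.86 in thresholded peaks and 0.160 in other weak peaks. Of the members, 6657 had the same width, 320 bp.

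The members just under the threshold had signals of 35.19, 35.19 and 35.18 and lay in an intron nearest the start of afd-1, in the T04C12.8 promoter and in the intron nearest sdpn-1. The thresholded peaks just over it had 35.21, 35.23 and 35.23 and lay in an intron nearest hlh-30, in the ugt-32 promoter and in an intron nearest mca-1. The lowest member, at 8.163, lay between genes nearest the start of cnt-2.

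The replicates ordered the members differently. Each member was given the signal of the strongest replicate peak that it overlapped. The same replicate peak could serve more than 1 member, so not every value or rank is a separate observation. These values had a median of 8.33 and a range of 3.26 to 84.6 in replicate 1, and a median of 10.5 and a range of 5.94 to 136 in replicate 2. Across members the log10 signals of the replicates had a Pearson correlation of 0.344 and a Spearman correlation of 0.281, and across the 4214 thresholded peaks in both lists these were 0.248 and 0.263. Each set was cut by pooled signal, made from the same libraries, so these correlations describe the sets only. Of the members, 248 were among the strongest 4530 peaks of both replicates. Another 471 were among them in replicate 1 alone, 796 in replicate 2 alone and 5144 (77.2%) in neither. The threshold had already removed the peaks of highest pooled signal, so these counts too describe the set only. The replicate lists were long: they covered 7.68% and 9.58% of the genome, and 55.5% and 62.3% of all weak peaks overlapped them. The summits of the overlapping replicate peaks, taking the nearest pair in each member, were a median of 98 bp apart, and 35 bp apart in thresholded peaks. They lay within 50 bp of each other in 1899 members (28.5%), against 64.1% of thresholded peaks. At 349 members, in at least 1 replicate, no overlapping peak was free of overlap with a thresholded peak.

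**Figure D1:**
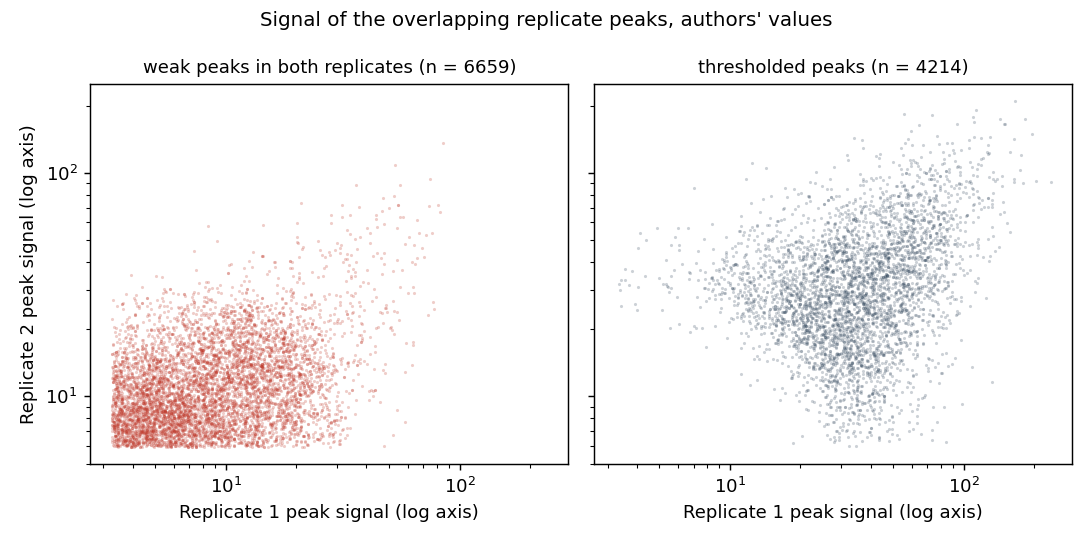
Signal of the strongest overlapping peak in replicate 1 (x) and replicate 2 (y), both on log axes, for the 6659 weak peaks in both replicates (left) and the 4214 thresholded peaks found in both lists (right). Most weak peaks sit at low signal in both replicates, around medians of 8.33 and 10.5, and form a broad cloud with no tight diagonal.

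GATA sites were more frequent at the summits of these weak peaks than in the DNA beside them. Within 50 bp of the summit, 1843 members (27.7%, 95% Clopper-Pearson interval 26.6 to 28.8) held WGATAR. In equally wide windows 500 bp to either side of the summit the share was 20.1% each, an excess of 7.58 percentage points at the summit (exact McNemar tests, p = 3.17e-25 and 2.7e-24). Intervals of this kind cover counting error over peaks only, and neighbouring peaks are not independent. The excess was 17.7 points in thresholded peaks (38.6% at the summit) and 1.37 points in other weak peaks (20.9%). Members held WGATAR less often than thresholded peaks, a difference of -10.9 points (two-sided Fisher's exact test, adjusted p = 1.09e-32 by the Benjamini-Hochberg method over 16 comparisons), and more often than other weak peaks, by 6.80 points (adjusted p = 4.5e-27). Overlap was also required with the replicate 1 list only, whatever replicate 2 held, so all members stayed in. The excess over flanks was then 4.51 points and the difference from weak peaks outside that list 3.44 points. At least 2 sites stood in 431 members (6.47%), 627 thresholded peaks (14.3%) and 489 other weak peaks (3.27%). By the list they overlapped, other weak peaks had WGATAR at 20.5% of summits with replicate 1 alone, 21.9% with replicate 2 alone and 19.01% with neither.

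**Figure D2:**
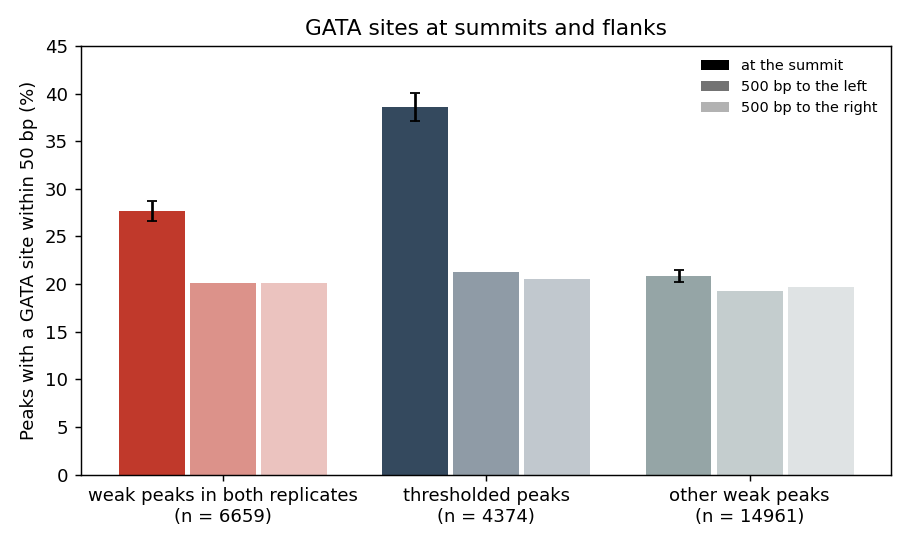
Share of peaks (%) with WGATAR within 50 bp of the summit (dark bars) and in windows 500 bp to the left and right (paler bars), for weak peaks in both replicates, thresholded peaks and other weak peaks. Error bars are 95% exact intervals on the summit shares; the weak peaks in both replicates reach 27.7% over flanks of 20.1%.

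The sites gathered at the summit itself. In bins of 20 bp, the share of members with a site was 7.79% just left of the summit and 7.25% just right of it, and 4.06% and 4.13% in the outermost bins, up to 300 bp away. In thresholded peaks the highest bin held 11.6%. In other weak peaks no bin within 300 bp was above 5.22%, and the profile was nearly flat.

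**Figure D3:**
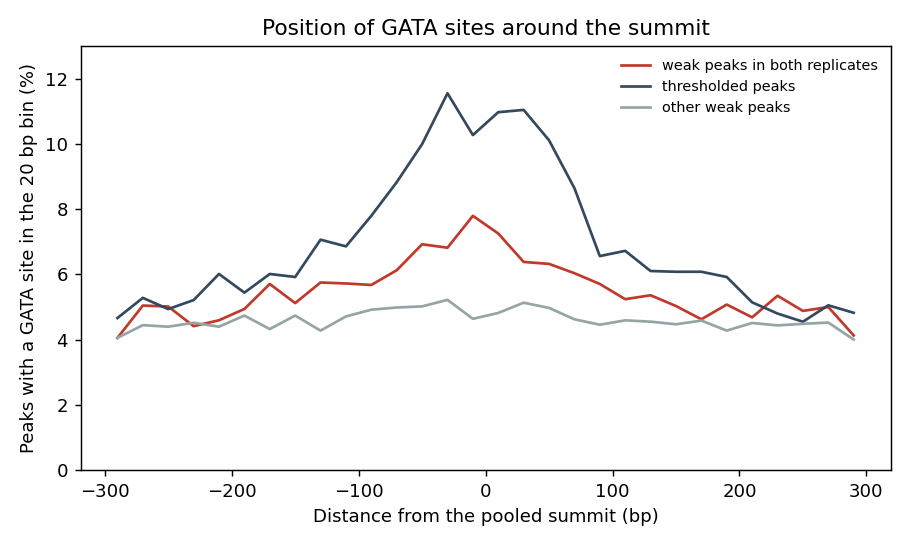
Share of peaks (%) with a WGATAR site in each 20 bp bin, by distance from the pooled summit in bp, for the 3 sets of peaks. The line of weak peaks in both replicates rises to 7.79% at the summit, between thresholded peaks and the nearly flat line of other weak peaks.

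Within the members, the share with WGATAR went up with pooled signal. In 5 bins of equal size from the lowest signal to the highest it was 20.1%, 23.5%, 26.97%, 33.4% and 34.4%, while the flanks stayed between 18.9% and 21.2%. The lowest bin, up to a signal of 11.4, was 20.1% at the summit and 18.9% in the flanks. The highest bin had 34.4% (31.8 to 37.01). For thresholded peaks in 5 bins, from the lowest signal to the highest, the share was 38.7%, 34.3%, 36.2%, 40.2% and 43.7%. GATAAG, the GATA-containing sequence of 6 bases with the lowest p against flanks, was in 4.35% of members in the lowest bin and 11.8% in the highest.

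Much of the gap to other weak peaks went with pooled signal. Over the same 5 bins, other weak peaks had WGATAR at 19.5%, 20.7%, 24.9%, 30.2% and 29.2% of summits. Members were higher in each bin, by 0.623 to 5.17 points, and in none of the 5 alone did the difference pass (Fisher's exact test, adjusted p from 0.169 to 0.605). Over all bins together the difference was 2.11 points, against 6.80 without regard to signal (exact Cochran-Mantel-Haenszel test stratified by 5 bins, adjusted p = 0.00375), and 1.91 points over 20 finer bins (adjusted p = 0.00895). The bins were chosen after the first results had been seen.

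**Figure D4:**
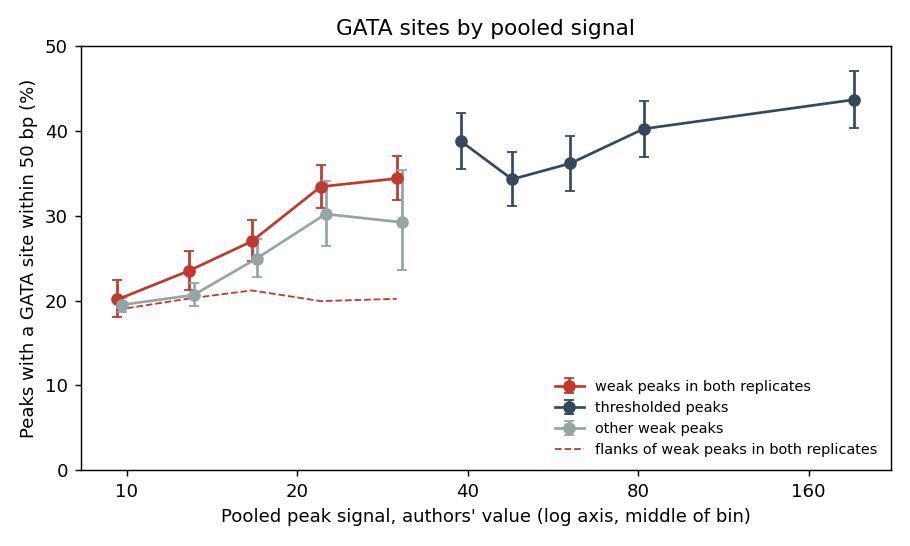
Share of peaks (%) with WGATAR within 50 bp of the summit by pooled signal (log axis, authors' value, middle of each bin), for weak peaks in both replicates, thresholded peaks and other weak peaks, with 95% exact intervals; the dashed line is the flanks of the weak peaks in both replicates. The share climbs from 20.1% to 34.4% across the weak peaks in both replicates, and other weak peaks of like signal lie 0.623 to 5.17 points below.

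Members whose replicate summits lay close together held more sites. WGATAR was at 31.9% of the 1899 members with replicate summits within 50 bp and at 25.99% of the other 4760 (difference 5.92 points, Fisher's exact test, adjusted p = 2.0e-06). By distance between the replicate summits, the share was 32.5% up to 25 bp, 31.2% from 26 to 50 bp, 29.4% from 51 to 100 bp, 25.5% above that up to 200 bp and 22.9% beyond. Pooled signal moved along with it, with medians of 20.2 in the closest class and 12.6 in the widest. Stratified by 5 bins of signal, the difference was 3.66 points (exact Cochran-Mantel-Haenszel test, adjusted p = 0.00375).

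The replicate lists differed in base composition. Mean GC content within 50 bp of the summit was 40.1% over the whole replicate 1 list and 33.4% over the whole replicate 2 list. Members, at 36.5%, lay between, above their flanks (35.2% and 35.1%) and below thresholded peaks at 42.4%. Of the members, the 471 among the strongest 4530 peaks of replicate 1 alone had 42.04% GC, WGATAR at 28.03% and GAGAGA at 22.5% of summits. The 796 that were so in replicate 2 alone had 35.7% GC, WGATAR at 36.1% and GAGAGA at 12.9%. The part of base composition in the other results was not tested.

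Each sequence of 6 bases was counted together with its reverse complement. Of them all, 164 (7.88%) were more frequent at member summits than in both flanks and 5.38% were less frequent (exact McNemar tests, the larger of both p-values adjusted over all of them). The first count was 71 when only overlap with the replicate 2 list was required and 294 when only that with the replicate 1 list was. GAGAGA led, in 11.8% of members against 6.23% in flanks (exact McNemar, adjusted p = 7.43e-25), and purine-rich relatives of it such as AGAGAC and AAGAGA followed. GATAAG was second, in 7.88% of members against 3.79% in flanks (exact McNemar, adjusted p = 5.36e-21). It had the largest fold over flanks of the 60 sequences with the same bases, of which 12 were more frequent than in flanks. TGATAA was sixth, in 14.5% against 9.30%. Of the 48 sequences that contain GATA, 13 were more frequent than in flanks and 1, TGGATA, was less frequent. AGGTCA, the nuclear receptor half-site, ranked at 20, in 4.51% of members against 2.62% in flanks (exact McNemar, adjusted p = 4.63e-07).

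Set against thresholded peaks, the same windows were poorer in these sequences. Of all sequences tested, 449 (21.6%) were more frequent in members and 635 (30.5%) less frequent (two-sided Fisher's exact tests, adjusted p below 0.05). Of the 164 that were over their flanks in members, 136 were less frequent than in thresholded peaks, 27 were not called either way and 1, AAAAAG, was more frequent. GAGAGA was in 11.8% of members and 24.97% of thresholded peaks, GATAAG in 7.88% and 15.5%, and CTGCGT in 4.43% and 12.03%. AGGTCA was in 4.51% of members and 5.42% of thresholded peaks, a difference that missed the threshold (Fisher's exact, adjusted p = 0.0563). The sequence with the lowest p of those higher in members was AAAATT, in 36.6% of members, 16.6% of thresholded peaks and 44.99% of the members' own flanks.

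Members lay in promoters less often than thresholded peaks and more often than other weak peaks. Promoters reach here from 1000 bp before to 200 bp past the start of each protein-coding transcript. A promoter held the summit of 2833 members (42.5%), against 58.0% of thresholded peaks (difference -15.4 points, Fisher's exact test, adjusted p = 3.31e-56) and 29.2% of other weak peaks (13.3 points, adjusted p = 1.94e-79). Coding exons held 501 members (7.52%), against 0.800% of thresholded peaks (6.72 points, Fisher's exact, adjusted p = 2.85e-71) and 13.5% of other weak peaks (-5.96 points, adjusted p = 1.44e-38). Introns held 21.9% of members, 14.2% of thresholded peaks and 31.1% of other weak peaks, both differences past the threshold (Fisher's exact, adjusted p = 2.52e-24 and 1.56e-44). Intergenic DNA held 22.9% of members and 23.6% of thresholded peaks (Fisher's exact, adjusted p = 0.511), and 20.9% of other weak peaks (adjusted p = 9.4e-04). UTRs held 3.27% of members, 1.01% of thresholded peaks and 3.44% of other weak peaks.

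Signal bore on location too. The promoter share of members was 37.7% in the lowest of the 5 signal bins and 52.7% in the highest, and their coding exon share 10.2% and 2.55%. Against other weak peaks of like signal, members were more often in promoters in the 2 lowest bins, 37.7% against 26.4% and 35.7% against 28.5% (Fisher's exact, adjusted p = 3.56e-16 and 4.64e-06). The other 3 differences did not pass, at 39.7% against 36.5%, 46.9% against 47.9% and 52.7% against 56.8%. Members were thus not higher in the 2 highest bins. Stratified by the 5 bins the promoter difference was 6.12 points and the coding exon difference -2.68 points (exact Cochran-Mantel-Haenszel tests, adjusted p = 6.84e-14 and 5.94e-07). The differences also moved with the replicate. When only overlap with the replicate 2 list was required, the promoter difference was 3.70 points. With only the replicate 1 list required, the coding exon difference was 0.393 points and did not pass (Fisher's exact, adjusted p = 0.382). Against thresholded peaks the same settings gave a promoter difference of -23.2 points for replicate 2 and a coding exon difference of 11.03 points for replicate 1.

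**Figure D5:**
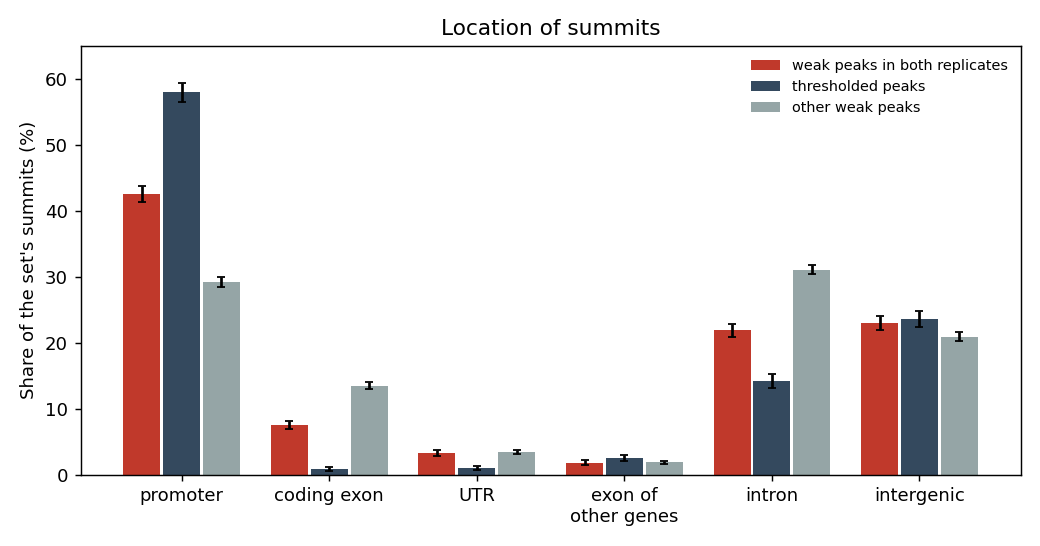
Share of summits (%) in each of 6 kinds of location, for weak peaks in both replicates, thresholded peaks and other weak peaks, with 95% exact intervals. Weak peaks in both replicates lie between the other sets in promoters (42.5%), coding exons (7.52%) and introns (21.9%).

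The share of members with WGATAR differed by location. It was 28.9% in promoters, 26.4% in introns, 31.02% between genes and 17.8% in coding exons, where the flanks had 20.8% and 18.4%. In promoters thresholded peaks had 31.7%, a difference from members of -2.80 points (Fisher's exact, adjusted p = 0.0415 over 12 comparisons). In introns WGATAR was at 26.4% of members and 49.0% of thresholded peaks (Fisher's exact, adjusted p = 7.25e-22), and between genes at 31.02% of members and 48.5% of thresholded peaks (adjusted p = 4.3e-18). Other weak peaks had 22.9% in promoters, 18.5% in introns and 22.2% between genes, each lower than members (Fisher's exact, adjusted p = 3.03e-08, 6.28e-10 and 5.61e-10). In coding exons other weak peaks had 18.6%, and the difference from members did not pass (Fisher's exact, adjusted p = 0.763). These shares were compared without regard to signal.

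Members lay farther from gene starts than thresholded peaks. The median distance to the nearest start of a protein-coding transcript was 886 bp for members, 522.5 bp for thresholded peaks and 1193 bp for other weak peaks. Within 200 bp upstream of a start stood 12.9% of members, 26.1% of thresholded peaks and 6.77% of other weak peaks. The 100 bp bin richest in members was the same as in thresholded peaks, from 200 to 100 bp upstream, with 6.79% and 15.1% of summits. Of the members in exons of other genes, 85 lay in ncRNA genes, 21 in pseudogenes, 7 in lincRNA genes, 6 in piRNA genes, 3 in miRNA genes and 2 in antisense RNA genes, with a summit in exons of more than 1 kind of gene counted under each.

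Weak peaks in both replicates lay beside thresholded ones more often than other weak peaks did. A thresholded summit was within 1 kb of 1270 members (19.1%) and of 9.42% of other weak peaks (difference 9.65 points, Fisher's exact test, adjusted p = 1.28e-81). A replicate peak can overlap a member and a thresholded peak at once. Without replicate peaks that overlap a thresholded peak, the difference was 3.11 points (Fisher's exact, adjusted p = 7.6e-10). With only overlap with the replicate 2 list required, the difference was 2.14 points. Members within 1 kb of a thresholded summit had WGATAR at 32.7% of summits over flanks of 22.1%, and those farther away at 26.5% over flanks of 19.6%.

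The members were spread over all 6 chromosomes used. Chromosome III had 79.95 members per Mb and V had 55.7. WGATAR was at 30.99% of members on V and 30.3% of those on X, and the lowest share was 22.6%, on chromosome I. Thresholded peaks there had 30.6% and other weak peaks 17.97%.

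Of the 19973 protein-coding genes, 2729 (13.7%) had a member in the promoter, and 2164 (10.8%) had a member and no thresholded peak. Thresholded peaks marked 3035 genes (15.2%), so 565 genes had both. More than 1 member stood in 488 promoters. A member in a promoter was shared by at least 2 genes in 16.4% of cases, against 27.2% for thresholded peaks and 10.8% for other weak peaks. Genes that share a promoter share its peak, so counts of genes are not counts of independent peaks. The lists that follow were chosen with earlier results of these data known and carry no test. Each count of genes is read beside the 13.7% of all genes. Each count of peaks with WGATAR is read beside the 28.9% of all members in promoters. The worms were whole, so a peak does not say in which cells the protein was bound.

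Cuticle collagens are the structural proteins of the epidermal matrix. Of 20 furrow and body-shape collagens, whose loss changes the shape of the worm or the annuli of its cuticle, 5 had a member and none of these had a thresholded peak; another 5 had a thresholded peak. The rol-8 peak had a pooled signal of 29.6, with 16.02 in replicate 1 and 17.5 in replicate 2, and 2 WGATAR sites. At dpy-7, a collagen of the cuticle furrows, the pooled signal was 20.5, and replicate 1 at 25.8 was well above replicate 2 at 6.85. The dpy-14 peak, 92 bp upstream of the start, had 15.3 in the pool, 13.6 in replicate 1 and 8.16 in replicate 2. Of the 5 peaks in this list, 4 held WGATAR, with sqt-2 and bli-2 as the other genes. In the larger col family 23 of 156 genes (14.7%) had a member, and 10 of the 22 peaks held WGATAR. The strongest in promoters with no thresholded peak were at col-41, with a signal of 34.6, at col-167, with 33.5, and at col-94, with 32.6, all within 300 bp upstream of the start and none with WGATAR within 50 bp of the summit. At col-167 both replicates put the summit at the same base.

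Genes for molting and the apical matrix had a member in 4 of 37 promoters. The strongest with no thresholded peak beside it in the promoter was that of cut-6, a cuticlin, with a pooled signal of 34.7, 11.7 in replicate 1 and 21.7 in replicate 2, and 2 WGATAR sites. The next, at dpy-18, which encodes a subunit of the prolyl 4-hydroxylase that modifies collagen, had 27.7 in the pool, 13.7 in replicate 1 and 22.5 in replicate 2. The peak of mlt-4, a gene needed for molting, was weak, at 11.1. Of the 4 member peaks in this list, only these 3 held WGATAR, beside 28.9% of all members in promoters.

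Among epidermal antimicrobial peptide genes 4 of 19 had a member and 10 a thresholded peak. The neighbours cnc-1 and cnc-5, which encode caenacins, shared a peak with a pooled signal of 21.9, 11.3 in replicate 1 and 12.6 in replicate 2. The cnc-11 peak had 17.7 in the pool, and nlp-30 was the other gene. None of the 4 peaks in this list held WGATAR, beside 28.9% of all members in promoters. Of 18 genes of epidermal immunity and the osmotic response, 6 had a member. Of these, ptr-23, gpdh-2 and wnk-1 had no thresholded peak. At gpdh-2, which encodes a glycerol-3-phosphate dehydrogenase of osmolyte synthesis, the signal was 22.3, with 17.6 in replicate 1 and 9.79 in replicate 2, and at wnk-1, a kinase of the same response, 17.2, with 12.5 in replicate 2. The ptr-23 peak, at 26.5, had 19.1 in replicate 1 and only 6.77 in replicate 2, where it ranked 22220.

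Epidermal attachment and junction genes had members in 6 of 19 promoters, with 12 peaks among them, of which 3 held WGATAR. The promoter of ajm-1, a protein of the apical junction, had 3 members, the strongest with a pooled signal of 24.9, 10.9 in replicate 1 and 20.6 in replicate 2. The promoters of hmp-1, the alpha-catenin of the worm, and of sax-7, an adhesion protein of the L1CAM family, had 2 each. At hmp-1 the replicate summits were 369 bp apart, so the lists agreed on the overlap and not on a position. Among other named peaks, they were 266 bp apart at ceh-13, 251 bp at nhr-114 and 207 bp at cnc-1 and cnc-5. In the Hedgehog-related and Patched-related families 7 of 85 genes had a member, with ptr-8 at 28.3, ptr-23 as above and ptr-14 at 26.1.

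Of 14 genes for epidermal transcription factors, grh-1 and nhr-25 had members (14.3%, beside 13.7% of all genes). The promoter of grh-1, the Grainyhead factor of epidermal barriers, held 2 members and no thresholded peak, the stronger with 24.7 in the pool, 8.87 in replicate 1 and 15.3 in replicate 2. At nhr-25, a nuclear receptor of epidermal development, the nearest member lay close upstream of the start with a pooled signal of 15.7, and a thresholded peak with 54.2 lay 301 bp upstream. Both overlapped the same replicate peaks, with 38.0 in replicate 1 and 18.9 in replicate 2, so this member is not a separate observation in the replicates. Of the 11 GATA factor genes, none had a member in the promoter. At elt-3 itself 2 thresholded peaks lay in the promoter, and the nearest member lay 4822 bp downstream of the start. The nearest members to elt-1, egl-18, elt-6, lin-26, elt-2 and elt-7 lay outside their promoters. The same held for unc-119, nhr-23, blmp-1, lin-29, rol-6, nlp-29 and gpdh-1, of which nhr-23, nlp-29 and gpdh-1 had a thresholded peak in the promoter.

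Nuclear hormone receptor genes were a family with many members, in 65 of 269 promoters (24.2%), and 55 (20.4%) had a thresholded peak. Their 77 peaks included 19 with WGATAR. The strongest of those without a thresholded peak were at nhr-90, with a pooled signal of 34.6, 12.9 in replicate 1 and 23.1 in replicate 2, and at nhr-114, with 34.02, 21.8 and 24.6 in the pool, replicate 1 and replicate 2. The nhr-90 peak, 44 bp upstream of the start, lay in a promoter shared with another gene. Chemoreceptor genes, the largest family counted, had members in 15 of 1309 promoters (1.15%), led by srbc-24 at 34.3 and srh-89 at 30.95, and both of these peaks stood in promoters shared with another gene whose start was nearer. Ribosomal protein genes, of which 69 of 78 had a thresholded peak, had members in 6, and only rps-2 and rpl-34 had a member without a thresholded peak, with signals of 29.8 and 19.4. The rpl-34 peak stood in a promoter shared with ppm-1.H, whose start was nearer.

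Genes of other tissues and classes had few members, in lists of few genes each. Of 22 intestinal genes 2 had a member: erm-1, which encodes an ezrin-like protein of the apical membrane, at 25.4, and ifd-2, an intestinal intermediate filament, at 15.3 with 3 WGATAR sites. Body-wall muscle genes had 1 of 20, at unc-52, the perlecan of the basement membrane, with 14.9. Pharynx genes had 0 of 16 and neuron genes 0 of 25. Germline genes had 2 of 25, gld-1 at 17.5 and pos-1 at 14.1, both RNA-binding proteins. Homeobox genes of the ceh class had 4 of 63, with the Hox gene ceh-13 at 29.4 in the pool, 27.95 in replicate 1 and 5.96 in replicate 2.

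The 10 members of highest signal all lay between 35.11 and 35.19. Of these, 4 lay in promoters, of T04C12.8, ttm-1, which encodes a zinc transporter, oac-7 and mrps-16, which encodes a protein of the mitochondrial ribosome. Another 3 lay in introns and 3 between genes. WGATAR was in 2 of the 10, the T04C12.8 peak and the one nearest eat-17, beside 34.4% of members in the highest signal bin. The replicate signals of the 10 ran from 5.44 to 29.8 in replicate 1 and from 7.36 to 25.5 in replicate 2. The T04C12.8 peak was at rank 17736 in replicate 1 and 2695 in replicate 2, while the mrps-16 peak was at 2906 in replicate 1 and 17175 in replicate 2.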

How the data were processed

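The data are ChIP-seq peak lists of ELT-3 in L1 larvae, as the authors deposited them: on ce11, relaxed lists of replicate 1, replicate 2 and their pool, and a thresholded list. Per the deposited file descriptions they come from alignments and a control. Aligner and caller were not given in the sources used here. Each peak's signal is the authors' deposited value on an unstated scale, −log10 q is the authors' deposited value too, and summits come from the deposited summit offset. Reads, control libraries and signal tracks were not analysed here, and the ce10 lists served only for counts on ce10, where 8156 of 26628 weak peaks (30.6%) were in both replicates before the filter on small RNA genes, against 31.2% on ce11. Depth is unknown.

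Of 6858 weak peaks in both lists, 199 within 200 bp of a tRNA, snoRNA or snRNA gene were left out. Sequences came from RefSeq WBcel235 and gene models from Ensembl 115. Each summit was given 1 location, promoters taking precedence, then coding exons, UTRs, exons of other gene types and introns. WGATAR and 6-base sequences were counted within 50 bp of the summit, on both strands, and compared with flanks by exact McNemar tests and between sets by two-sided Fisher's exact tests, Benjamini-Hochberg adjusted over 16 comparisons or all sequences. Signal-stratified exact conditional Cochran-Mantel-Haenszel tests, adjusted over 5 comparisons, were added after seeing the data. The named genes are those at the 10 strongest members and the printed sequences, the 3 (epidermal) or 2 (other) genes per list with the strongest member and no thresholded peak, and 16 given genes; others were named after their values were seen. Members and lists were chosen with earlier results of these data known. The symbol ifa-2 was not matched. Alternatives changed the overlap, set, window, motif, flank, promoter and replicate. The McNemar and Fisher tests were tried on simulated windows of independent random bases. These hold no neighbouring peaks and no difference in base composition, so they do not bear on those limits. Python 3.11.15, numpy 2.4.6, scipy 1.17.1, pandas 2.3.3, statsmodels 0.14.6 and matplotlib 3.10.9 were used.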

Additional observations from a re-analysis of the deposited data

How the results depend on the processing

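Of 137 values under alternative settings, 131 kept their direction and their side of the threshold, or stayed within 1.5 times for counts. Reversed was the coding exon difference between members and other weak peaks, at 0.393 points when replicate 2 was left out (Fisher's exact, adjusted p = 0.382). Restricting members to those above their median pooled signal gave 185 sequences of 6 bases less frequent than in flanks, and 275 more and 346 less frequent than in thresholded peaks. In those members the WGATAR excess over flanks was 12.6 points. The WGATAR difference was -5.78 points from thresholded peaks and 11.96 points from other weak peaks. Other weak peaks were not cut by signal here. Stratified by 5 bins of signal, all members differed from them by 2.11 points. The promoter and coding exon differences from thresholded peaks were -9.86 and 4.01 points. With a half-window of 25 bp the WGATAR difference from thresholded peaks was -6.03 points. The difference in neighbours was 6.11 points when 50% of each pooled peak had to be covered and 15.1 points within 2 kb.

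Requiring overlap with 1 replicate list only, whatever the other held, gave a WGATAR excess over flanks of 4.51 to 5.17 points. The WGATAR difference was -14.1 to -13.9 points from thresholded and 3.44 to 4.74 points from other weak peaks. In the same order, the promoter difference was -23.2 to -19.2 and 3.70 to 12.2 points. The coding exon difference was 7.70 to 11.03 and -8.36 to 0.393 points. Neighbours within 1 kb differed by 2.14 to 9.20 points from other weak peaks. Close replicate summits could not be recomputed this way, since a peak in 1 list has no distance between replicate summits. The counts of 6-base sequences were 71 to 294 more and 102 to 166 less than flanks, and 488 to 518 more and 638 to 936 less than thresholded peaks. The cause was not tested.

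No paired analysis was possible because all libraries belong to 1 group. Depth is unknown, so a weak peak cannot be set against a read count. Peaks that overlap in 2 long lists need not share a position, and the tests treat peaks as independent, which neighbours are not.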
